A study of Mus musculus with 8 samples.

Results

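The genes described here are 56 genes of the mitotic machinery, taken from the 24346 gene symbols listed for 8 RNA sequencing libraries of mouse adipose-derived stem cells (ADSCs). The members were chosen by gene symbol for their known part in chromosome condensation, spindle assembly, kinetochores, anaphase and cytokinesis. Earlier results of these data were known at the choice, so shares of members called are descriptions. All 56 were found in the files. The cells came from the gonadal fat of wild-type male BALB/c mice, all of a single age in the study's methods. They were cultures of unsorted digested tissue, with no altered allele named for either group. The 2D libraries are conventional cultures of mice 2, 3, 4 and 5, and the 3D libraries are organotypic cultures in Matrigel, a basement membrane gel, of mice 1, 4, 5 and 7. Mice 4 and 5 gave a library of each culture. The study grew 3D cultures in several media, some with Wnt3a and R-spondin1 conditioned medium, and the medium and passage of the sequenced cultures are not given in the sources used here. Growth in gel, medium and the selection of cells by each culture cannot be told apart in this design.

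Mitosis is entered when cyclin-dependent kinase 1 (CDK1), bound to A and B cyclins, phosphorylates a wide set of substrates. Kinetochores built on centromeric chromatin attach to spindle microtubules, the spindle checkpoint holds back the anaphase-promoting complex (APC/C) until all chromosomes are attached, and the APC/C activator CDC20 then frees separase to cut cohesin. Most of these genes are transcribed in the late cell cycle, when MYB-MuvB and FOXM1 activate their promoters. In resting cells the DREAM complex of p130 or p107, E2F4 and MuvB represses them. MuvB acts through a cell cycle genes homology region (CHR), and many of these promoters also hold CCAAT boxes. The summed transcript level of these genes in a bulk library follows the share of cells in late S, G2 and M phases. Fewer dividing cells and less mitotic RNA per dividing cell thus cannot be told apart here.

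Values are FPKM (fragments per transcript length and library size) after quantile normalization across the libraries, and in each list the 2D values stand in the order of mice 2, 3, 4 and 5 and the 3D values in the order of mice 1, 4, 5 and 7. All 8 libraries are labelled mesenchymal stem cells, and the 3D libraries went against that label on most of the mesenchymal markers listed, though not on all. In every 3D library 7 of 10 mesenchymal markers (Thy1, Eng, Nt5e, Pdgfra, Pdgfrb, Col1a1 and Col3a1) were at or below 0.350 FPKM, with Pdgfrb at 0 in all of them, whereas their lowest 2D value was 0.790 FPKM. The summed level of the 10 markers was 1756 to 2607 FPKM in 2D and 402 to 3359 FPKM in 3D, where Ly6a alone made up 58.6 to 3117 FPKM. Conversely, 6 of 6 epithelial markers (Epcam, Cdh1, Krt8, Krt18, Krt7 and Cldn4) were at 106 FPKM or more in every 3D library, with sums of 2133 to 2494 FPKM against 3.54 to 584 FPKM in 2D. Epcam, Cdh1 and Cldn4 stayed at or below 0.716 FPKM in 2D, but the keratin Krt8 read 0, 26.8, 261 and 0.0603 FPKM in 2D and Krt18 read 2.89, 114, 256 and 0 FPKM, so on these keratins the 2D libraries of mice 3 and 4 stood apart from those of mice 2 and 5. On Krt7, at 2.73, 3.02, 67.3 and 3.48 FPKM in 2D, the library of mouse 4 alone stood apart. Endothelial markers summed to 1.07 to 6.79 FPKM in 2D and 0.0480 to 0.202 FPKM in 3D, macrophage and leukocyte markers to 2.07 to 21.3 and 6.25 to 42.3 FPKM, smooth muscle and pericyte markers to 73.5 to 416 and 0.214 to 0.368 FPKM, and adipocyte markers to at most 0.111 FPKM, with 4 of 4 at 0 in all 3D libraries. In these lists Pecam1, Cdh5, Ptprc and Adgre1 were at most 0.476 FPKM in any library, but other members were not. The macrophage gene Cd68 read 1.19, 2.80, 3.01 and 0.874 FPKM in 2D and 5.98, 36.3, 9.71 and 8.76 FPKM in 3D (adjusted p = 0.0133, higher in 3D without overlap). Csf1r reached 7.65 FPKM in 3D, Lyz2 reached 18.7 FPKM in 2D and was at 0 in all 3D libraries, and Kdr, an endothelial receptor, read 3.92 and 6.34 FPKM for mice 3 and 4 in 2D. The share of the 2D to 3D difference in mitotic genes that goes with this difference in cell identity was not tested. Estimated depth was 14.5 to 17.4 M fragments per library, and transcripts of genes under 300 nt held 19.5 to 63.2% of the deposited FPKM, most in the 3D library of mouse 1.

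Promoter sequences are shown for the shared letters through which this gene group is known to be controlled. RefSeq promoter windows (GRCm38.p6, 250 bases before to 50 after each start) were given for 48 of the 56 members, not for Ccna2, Aurkb, Incenp, Spc24, Kif20a, Tpx2, Dlgap5 and Smc4. The 150 bases just before the start are printed for 6 members that hold both motifs there and for Pttg1 and Ncaph, the 2 members whose fitted difference between cultures had the opposite sign. Capitals mark a CHR (TTTGAA, or TTCAAA on the other strand) or a CCAAT box (CCAAT, or ATTGG on the other strand).
Mki67: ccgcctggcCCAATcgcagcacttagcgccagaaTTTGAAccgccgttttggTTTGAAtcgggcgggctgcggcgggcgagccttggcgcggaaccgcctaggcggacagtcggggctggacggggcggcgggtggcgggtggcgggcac
Cdk1: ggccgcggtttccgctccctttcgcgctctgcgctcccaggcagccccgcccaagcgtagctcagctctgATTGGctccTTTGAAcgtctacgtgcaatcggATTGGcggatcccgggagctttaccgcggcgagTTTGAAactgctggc
Cdc20: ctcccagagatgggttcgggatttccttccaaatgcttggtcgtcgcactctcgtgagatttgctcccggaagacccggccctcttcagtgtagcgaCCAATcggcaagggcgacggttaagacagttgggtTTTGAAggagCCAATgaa
Ube2c: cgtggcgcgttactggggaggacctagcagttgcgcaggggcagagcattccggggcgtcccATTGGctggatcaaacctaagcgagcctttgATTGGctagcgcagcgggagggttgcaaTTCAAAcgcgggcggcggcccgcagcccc
Kif11: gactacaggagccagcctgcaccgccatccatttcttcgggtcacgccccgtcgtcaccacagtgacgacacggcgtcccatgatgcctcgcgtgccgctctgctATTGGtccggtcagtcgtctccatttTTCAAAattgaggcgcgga
Espl1: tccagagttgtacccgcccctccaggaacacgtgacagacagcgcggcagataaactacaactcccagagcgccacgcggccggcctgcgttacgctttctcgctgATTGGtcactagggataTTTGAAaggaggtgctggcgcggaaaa
Pttg1: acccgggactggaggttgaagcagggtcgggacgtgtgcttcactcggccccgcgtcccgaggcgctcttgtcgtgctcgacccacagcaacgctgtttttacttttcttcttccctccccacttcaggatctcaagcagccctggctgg
Ncaph: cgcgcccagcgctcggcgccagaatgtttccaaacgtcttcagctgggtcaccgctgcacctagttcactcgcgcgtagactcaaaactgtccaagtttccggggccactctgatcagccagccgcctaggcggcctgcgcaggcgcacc
These stretches lie at chr7:135716380-135716529 (Mki67, minus strand), chr10:69352913-69353062 (Cdk1, minus), chr4:118437344-118437493 (Cdc20, minus), chr2:164769779-164769928 (Ube2c, plus), chr19:37376232-37376381 (Kif11, plus), chr15:102296143-102296292 (Espl1, plus), chr11:43425982-43426131 (Pttg1, minus) and chr2:127133955-127134104 (Ncaph, minus). The GENCODE model of Pttg1 (chr11:43420250-43426251) starts further upstream, so that its stretch lies inside that annotated gene. The last bases of the Cdk1, Cdc20, Ube2c and Espl1 stretches also lie inside the GENCODE gene. For Cdk1, Ube2c and Espl1 these bases include the marked CHR nearest the start.

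Searched on both strands of the whole window, the CHR letters TTTGAA were found in 34 of 48 member promoters (70.8%), against 15.4% of the 13934 tested genes with a window. The variant TTCGAA was found in 4 of 48 (8.33% against 2.23%), CCAAT in 36 of 48 (75% against 41.7%), and GCGGGAA or GCGCGAA, the core of an E2F site, in 7 of 48 (14.6% against 10.6%). A CHR together with a CCAAT box stood in 29 of 48 windows (60.4%), compared with 6.24% of tested genes, and 1 pair of matches shared a base. Counted at each RefSeq start, 35 of the 47 CHR matches in the members (74.5%) lay within 60 bases of the start. Prc1 and Ect2 have more than 1 start, so the same letters were counted again for them. The share of CHR matches this near the start was not computed for all tested genes. Neither a CHR nor a CCAAT box was found for 7 of the 48 members. These were Pttg1 and Ncaph, and also Birc5 (-2.18), Nuf2 (-2.05), Mad2l1 (-1.85), Kif18a (-1.42) and Nusap1 (-1.17), all 5 of which were called lower in 3D in the comparison of cultures below (log2 fold change in parentheses). The median log2 fold change in that comparison was -1.68 for members with a CHR and -1.39 for the 14 without, -1.62 with and -1.61 without a CCAAT box, -1.61 with and -1.62 without the CHR variant, and -1.66 with and -1.59 without an E2F site. A match in letters is a description and not a binding site.

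Transcripts of the mitotic machinery stood lower in 3D, with called members in each of the 11 functional groups. In the 4 against 4 comparison 48 of 56 members (85.7%) were lower in 3D at a limma adjusted p below 0.05 and 0 were higher while 20.3% of all 18862 genes tested were called lower and 21.2% higher. At an unadjusted p under 0.05, 50 members were lower and 0 higher, against 24.1% and 24.9% of all genes. The median log2 fold change was -1.65 over the members and 0.00 over all genes tested, 54 of 56 differences were negative, and the 48 called differences ran from 1.92-fold for Spc24 to 7.37-fold for Anln. All 2D libraries lay above all 3D libraries in 39 members (69.6%, against 20.9% of all genes tested). All 56 members were above 0 in every library, from 0.247 FPKM for Kif14 to 76.9 FPKM for Ube2c. With mouse as a block, which leaves the contrast to mice 4 and 5, 0 members and 0 of all genes were called (adjusted p of the members 0.166 to 0.926, median log2 fold change -1.38). At an unadjusted p under 0.05 this fit had 0 of 56 members lower, against 12.6% of all genes, and 1 higher, Pttg1, against 15%, so the members did not pass that threshold as lower more often than other genes. Leaving out 1 library at a time gave 32 called members without the 2D library of mouse 2, 33 without 3D mouse 7, 34 without 3D mouse 5, 35 without 2D mouse 5, and 44 to 49 without any of the others, and 32 of the 48 were called in all 8 of these fits. In these fits the share of all genes called lower was 17.7, 19.5, 20.6 and 18% without 2D mouse 2, 3, 4 and 5, and 18.7, 18, 17.1 and 17.5% without 3D mouse 1, 4, 5 and 7. The corresponding shares called higher were 18.3, 19.4, 19.3 and 18.1%, and 21.7, 19.4, 18.5 and 18.8%, in the same order. Other scalings and filters gave 39 to 49 members, beside all-gene shares (lower and higher) of 21.6 and 22.7% for the values as deposited, 23.5 and 21.1% with equal library medians, 20.2 and 21.3% without an intensity trend, 27.5 and 28.2% at a mean of 1 FPKM or more, 21.5 and 22% with a pseudocount of 0.1, 20.4 and 21.6% without genes under 300 nt, and 20 and 20.9% with mouse as a random effect. Without the 2D libraries of mice 3 and 4, which held the most Krt8 and Krt18 of their culture, an alternative chosen after seeing the data, 48 were called lower, with a median of -2.23, against 22.8% of all genes lower and 19.3% higher.

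**Figure D1:**
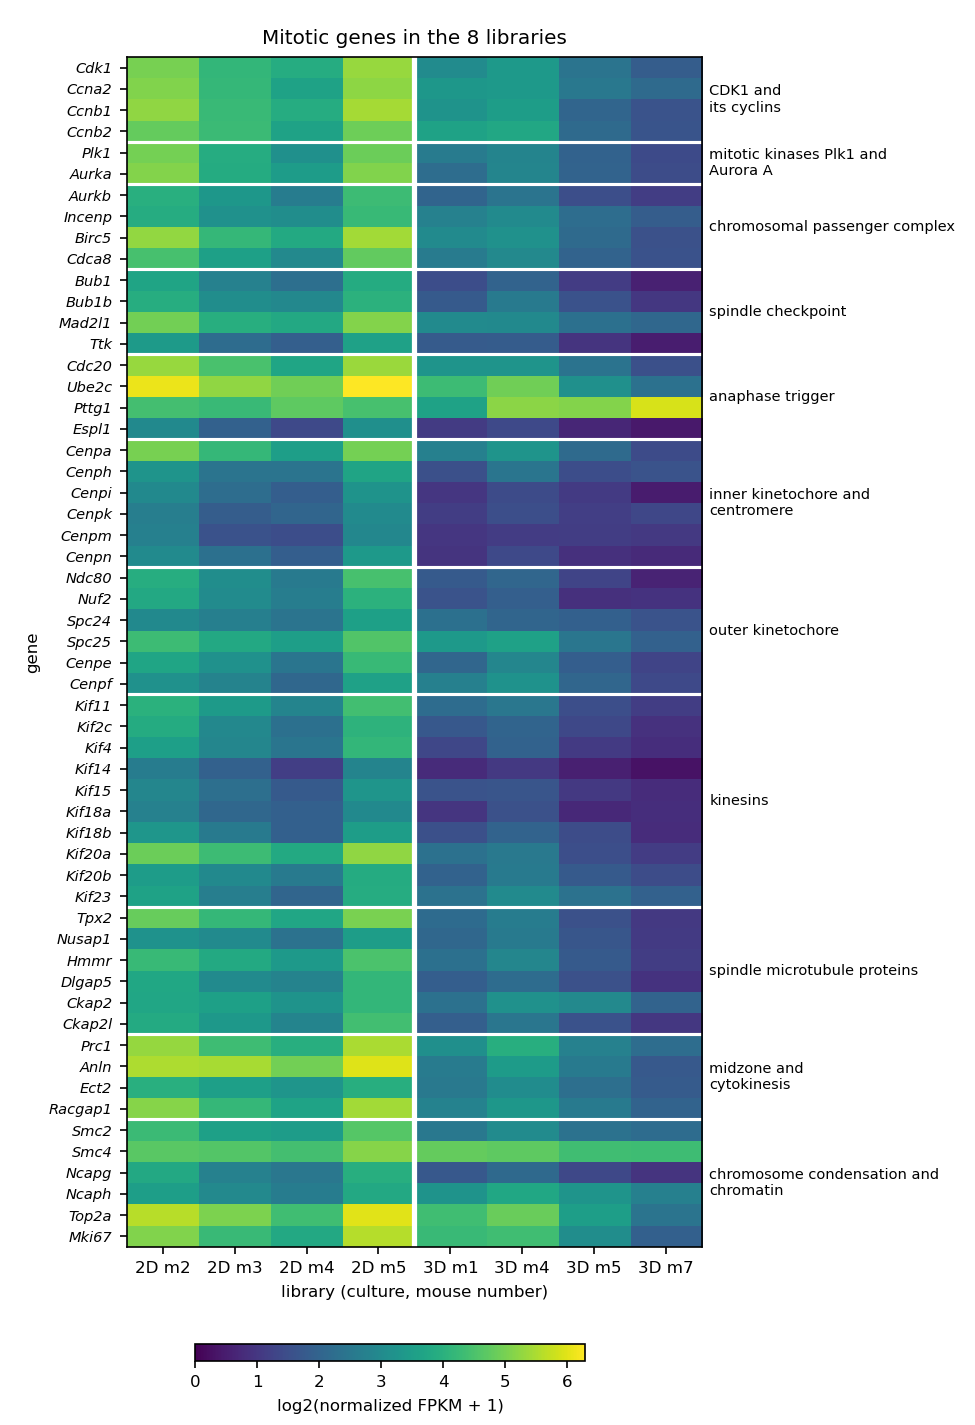
Level of the 56 mitotic genes in each library as log2(normalized FPKM + 1), with genes in rows grouped by role and the 4 2D libraries left of the 4 3D libraries (m, mouse). The columns of 2D mice 2 and 5 are the brightest and that of 3D mouse 7 the darkest, and Pttg1 runs against the other rows with its highest value, 58.6 FPKM, in 3D mouse 7.

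CDK1 and the cyclins that drive entry into mitosis fell together, 4 of 4 (median log2 fold change -1.80). Cdk1, the mitotic kinase itself (chr10:69335146-69352938, GRCm38), read 30.8, 16.9, 13.8 and 38.6 FPKM in 2D and 7.12, 9.47, 4.32 and 2.62 FPKM in 3D. Every 2D value was above every 3D value (log2 fold change -1.92, SE 0.43, adjusted p = 0.00862), and the mean level was 25.1 ± 11.7 FPKM in 2D and 5.88 ± 3.03 in 3D (mean ± SD, n = 4 each). Ccnb1, its main cyclin partner, read 36.8, 18.1, 13.9 and 42.4 FPKM in 2D and 8.40, 10.3, 3.17 and 2.06 FPKM in 3D. Its groups did not overlap either (log2 fold change -2.11, SE 0.52, adjusted p = 0.0139). Ccna2, the cyclin of S phase and G2, spanned 11.3 to 36.1 FPKM in 2D and 3.49 to 9.52 in 3D (log2 fold change -1.68, adjusted p = 0.0164). Ccnb2, the other B cyclin, read 26.8, 18.4, 11.4 and 28.6 FPKM in 2D and 11.3, 12.7, 3.52 and 2.12 FPKM in 3D. The 3D library of mouse 4 was above the 2D library of mouse 4, and the call was the weakest of the group (adjusted p = 0.0466, and up to 0.112 with 1 library left out).

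Both mitotic kinases of the next group fell. Plk1, which acts at centrosomes, kinetochores and the midzone, read 30.6, 13.7, 7.88 and 28.2 FPKM in 2D and 5.14, 6.13, 2.90 and 1.68 FPKM in 3D. The 2D libraries were all higher (log2 fold change -2.01, SE 0.48, adjusted p = 0.0122). Aurka, the spindle pole kinase activated by TPX2, read 33.6, 13.6, 10.1 and 32.9 FPKM in 2D and 3.71, 6.27, 3.03 and 1.73 FPKM in 3D. It was 4.74-fold lower in 3D (log2 fold change -2.24, SE 0.46, adjusted p = 0.00597).

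All 4 genes of the chromosomal passenger complex, which corrects faulty attachments and later guides cytokinesis, fell (median -1.72). Aurkb, its kinase, read 14.6, 8.99, 5.23 and 18.8 FPKM in 2D and 3.09, 4.36, 1.83 and 1.21 FPKM in 3D. No 3D value reached the lowest 2D value, that of mouse 4 (log2 fold change -1.78, SE 0.42, adjusted p = 0.0114). Birc5, which encodes survivin, read 37.5, 17.3, 13.1 and 41.3 FPKM in 2D and 7.07, 8.12, 3.53 and 1.96 FPKM in 3D. It had the largest difference of the complex (log2 fold change -2.18, SE 0.49, adjusted p = 0.00867). Incenp, the scaffold, read 13.9, 7.98, 7.42 and 17.8 FPKM in 2D and 5.79, 7.02, 3.73 and 2.62 FPKM in 3D. This was the smallest difference of the 4 (log2 fold change -1.13, SE 0.35, adjusted p = 0.0341), and the adjusted p rose to 0.0856 with 1 library left out. Cdca8, which encodes borealin, spanned 6.82 to 26.2 FPKM in 2D and 2.01 to 6.79 in 3D (-1.65, adjusted p = 0.0228, up to 0.0616 with 1 library left out).

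The spindle checkpoint genes fell in 4 of 4 cases (median -1.80), and none of them overlapped between cultures. Bub1b, which encodes the checkpoint protein BubR1, read 14.1, 7.42, 6.66 and 15.5 FPKM in 2D and 2.43, 4.90, 2.02 and 1.02 FPKM in 3D. The 3D library of mouse 4 was the highest of its culture, still below the lowest 2D value (log2 fold change -1.76, SE 0.39, adjusted p = 0.00875). Mad2l1, which encodes the CDC20 inhibitor MAD2, read 29.9, 14.2, 12.8 and 33.8 FPKM in 2D and 6.99, 6.94, 3.96 and 3.30 FPKM in 3D. It had the smallest adjusted p of the group (log2 fold change -1.85, SE 0.37, adjusted p = 0.00559). Ttk, the kinase MPS1 that starts checkpoint signalling, read 9.71, 3.70, 2.74 and 11.2 FPKM in 2D and 2.48, 2.57, 0.923 and 0.410 FPKM in 3D. The lowest of these, in 3D mouse 7, rested on an estimated 18.2 fragments, the fewest by the same estimate for any member value. The call was lost without any of 4 libraries (adjusted p = 0.0388, up to 0.0960 with 1 left out). Bub1, the kinase that brings BubR1 to kinetochores, spanned 3.88 to 13.7 FPKM in 2D and 0.492 to 2.98 in 3D (-1.86, adjusted p = 0.0113).

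Of the genes that trigger anaphase, 3 of 4 fell and Pttg1 did not. Cdc20, the APC/C activator, read 38.5, 21.3, 11.9 and 39.2 FPKM in 2D and 8.51, 8.52, 4.21 and 1.92 FPKM in 3D. The 2D range lay wholly above the 3D range (log2 fold change -2.09, SE 0.50, adjusted p = 0.0123). Ube2c, the ubiquitin-conjugating enzyme of the APC/C and the member with the highest level per transcript length in 2D, spanned 29.3 to 76.9 FPKM in 2D and 4.04 to 29.5 in 3D (-1.95, adjusted p = 0.0314, up to 0.0794 with 1 library left out), and within mouse 4 the values were 29.3 in 2D and 29.5 in 3D. Espl1, which encodes separase, spanned 1.60 to 7.80 FPKM in 2D and 0.349 to 1.63 in 3D (-1.46, adjusted p = 0.0280, up to 0.0741). Pttg1, which encodes securin, the inhibitor that separase is freed from, read 20.4, 18.2, 25.6 and 21.1 FPKM in 2D and 11.2, 35.4, 33.9 and 58.6 FPKM in 3D. The 2D values lay within 18.2 to 25.6 FPKM, the 3D values were spread from 11.2 to 58.6 FPKM, and 3 of the 4 exceeded every 2D value (log2 fold change 0.48, SE 0.44, adjusted p = 0.414). Without the 3D library of mouse 1, the lowest of all 8, Pttg1 was called higher in 3D (log2 fold change 0.95, adjusted p = 0.0127), and with the mouse block it had an unadjusted p of 0.0398.

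All 6 inner kinetochore and centromere genes fell (median -1.38). Cenpa, the histone H3 variant that marks centromeres, read 30.8, 17.1, 10.5 and 30.4 FPKM in 2D and 5.64, 8.47, 3.51 and 1.70 FPKM in 3D. Its difference was the largest of the group (log2 fold change -2.02, SE 0.47, adjusted p = 0.0104). Cenpn, the subunit that recognises CENP-A nucleosomes, read 7.02, 4.02, 2.70 and 9.30 FPKM in 2D and 0.917, 1.61, 0.83 and 0.692 FPKM in 3D. It was 3.15-fold lower in 3D (log2 fold change -1.66, SE 0.34, adjusted p = 0.00576). Cenpm read 5.69, 2.01, 1.79 and 6.51 FPKM in 2D and 0.996, 1.16, 1.19 and 1.06 FPKM in 3D. The 3D values were nearly equal, while mice 2 and 5 stood well above mice 3 and 4 in 2D (log2 fold change -1.11, SE 0.35, adjusted p = 0.0363, up to 0.0856 with 1 library left out). Cenpi spanned 2.66 to 8.30 FPKM in 2D and 0.385 to 1.69 in 3D, Cenpk 2.62 to 7.05 FPKM in 2D and 1.21 to 1.84 in 3D and Cenph 4.32 to 11.8 FPKM in 2D and 1.80 to 4.43 in 3D, all subunits of the constitutive centromere network, with log2 fold changes of -1.58, -1.11 and -1.17 (adjusted p = 0.00814, 0.0134 and 0.0329). The call for Cenph was lost without any of 5 libraries (adjusted p up to 0.0832).

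In the outer kinetochore, which binds microtubules, 4 of 6 genes fell (median -1.27). Nuf2 read 12.9, 7.19, 5.37 and 15.3 FPKM in 2D and 2.04, 2.75, 0.841 and 0.903 FPKM in 3D. The groups were far apart (log2 fold change -2.05, SE 0.38, adjusted p = 0.00356). Ndc80 spanned 4.90 to 20.8 FPKM in 2D and 0.552 to 3.23 in 3D (-2.06, adjusted p = 0.0104), and the other two subunits of the same complex had smaller fitted differences, a contrast between genes that was not tested. Spc24 spanned 4.31 to 10.9 FPKM in 2D and 2.07 to 3.96 in 3D (-0.94, adjusted p = 0.0267, up to 0.0706 with 1 library left out) and Spc25 spanned 10.5 to 22.9 FPKM in 2D and 2.86 to 11.2 in 3D (-1.19, adjusted p = 0.0510, and 0.0311 without 3D mouse 4). Cenpe, a kinesin that carries chromosomes to the spindle equator, spanned 4.48 to 17.7 FPKM in 2D and 1.43 to 6.42 in 3D (-1.35, adjusted p = 0.0459, up to 0.108). Cenpf, a large coiled-coil protein of the outer plate, read 8.07, 6.05, 3.28 and 11.1 FPKM in 2D and 5.63, 8.22, 3.21 and 1.62 FPKM in 3D. Its cultures overlapped, and only the 2D library of mouse 5 was above the 3D library of mouse 4 (log2 fold change -0.57, SE 0.46, adjusted p = 0.360).

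Kinesins, the motors of the spindle, fell in 9 of 10 cases (median -1.45). Kif11, the motor that pushes spindle poles apart, read 15.2, 9.73, 6.13 and 19.7 FPKM in 2D and 3.65, 4.61, 1.87 and 1.22 FPKM in 3D. The 2D values were all above the 3D values (log2 fold change -1.82, SE 0.42, adjusted p = 0.00982). Kif20a, which carries the passenger complex to the midzone, read 28.1, 18.8, 13 and 36.9 FPKM in 2D and 4.05, 4.86, 1.86 and 1.18 FPKM in 3D. It was 6.37-fold lower in 3D (log2 fold change -2.67, SE 0.42, adjusted p = 0.00164), although 29.3% of its annotated exon bases overlap those of Cdc23 on the opposite strand, and whether fragments were counted by strand is not given in the sources used here. Kif23, the motor of the centralspindlin complex, read 11.3, 5.40, 3.11 and 13.9 FPKM in 2D and 4.16, 7.05, 4.18 and 2.86 FPKM in 3D. The 3D values of mice 1, 4 and 5 lay above the 2D value of mouse 4, and the difference did not pass the test (log2 fold change -0.64, SE 0.44, adjusted p = 0.286). Kif2c, which frees wrongly attached microtubules, and Kif4, a chromokinesin, fell by 1.79 and 1.96 on the log2 scale (adjusted p = 0.0129 and 0.00683). Kif14, which acts in cytokinesis, had the lowest levels, 1.23 to 6.17 FPKM in 2D and 0.247 to 1.07 in 3D (-1.47, adjusted p = 0.0157). Kif15, Kif18a, Kif18b and Kif20b, motors of spindle length, chromosome alignment and the midzone, had log2 fold changes of -1.29, -1.42, -1.37 and -1.28 (adjusted p = 0.0242, 0.00720, 0.0267 and 0.0196), of which Kif15, Kif18b and Kif20b lost the call in 3 or 4 of the 8 fits without 1 library (adjusted p up to 0.0652, 0.0694 and 0.0530).

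All 6 spindle microtubule proteins fell (median -1.82). Tpx2, which nucleates spindle microtubules and activates Aurora A (chr2:152847964-152895321), read 27.4, 17.1, 12.1 and 31.4 FPKM in 2D and 3.60, 5.18, 1.94 and 1.08 FPKM in 3D. It was 5.95-fold lower in 3D, with no overlap between cultures (log2 fold change -2.57, SE 0.42, adjusted p = 0.00196). Nusap1, a microtubule-bundling protein, read 8.25, 7.04, 4.19 and 10.3 FPKM in 2D and 3.28, 4.98, 2.20 and 1.08 FPKM in 3D. The 3D library of mouse 4 exceeded the 2D library of the same mouse (log2 fold change -1.17, SE 0.37, adjusted p = 0.0370, up to 0.0922 with 1 library left out). Hmmr, Dlgap5 and Ckap2l, which organise spindle microtubules, fell by 1.96, 1.79 and 1.86 on the log2 scale (adjusted p = 0.00616, 0.00769 and 0.00830). Ckap2, a related microtubule-associated protein, spanned 8.31 to 16.8 FPKM in 2D and 3.03 to 8.04 in 3D (-1.04, adjusted p = 0.0270, up to 0.0684 with 1 library left out).

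Midzone and cytokinesis genes fell in 4 of 4 cases (median -1.83) and held the largest fitted difference of the 4 against 4 comparison. Anln, which encodes anillin, the scaffold of the contractile ring (chr9:22332012-22389188), read 44.5, 43.4, 30.0 and 62.1 FPKM in 2D and 5.09, 9.94, 4.96 and 2.35 FPKM in 3D. The lowest 2D library, of mouse 4, was far above the highest 3D library, also of mouse 4, and the mean level was 45 ± 13.2 FPKM in 2D and 5.59 ± 3.16 in 3D (mean ± SD, n = 4 each). The fold was 7.37 (log2 fold change -2.88, SE 0.36, adjusted p = 0.000593). By the ratio of mean FPKM, Kif20a (8.09) and Anln (8.05) were nearly level. With the mouse block their log2 fold changes were also close, at -2.49 and -2.45. Prc1, which bundles the antiparallel microtubules of the midzone, read 37.8, 19.1, 14.3 and 43.7 FPKM in 2D and 7.74, 14.4, 5.76 and 3.75 FPKM in 3D. The cultures of mouse 4 had nearly the same level (log2 fold change -1.74, SE 0.46, adjusted p = 0.0184, and 0.0508 without the 2D library of mouse 2). Ect2, the activator of RhoA at the equator, spanned 8.62 to 14.7 FPKM in 2D and 2.47 to 7.25 in 3D (-1.26, adjusted p = 0.00956). Racgap1, the partner of Kif23 in centralspindlin, spanned 11.6 to 41.4 FPKM in 2D and 3.02 to 9.04 in 3D (-1.92, adjusted p = 0.00996), so that within this complex 1 subunit was called and the other was not, a difference between the genes that was not tested.

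Of the chromosome condensation and chromatin genes 2 of 6 were called lower (33.3%, against 20.3% of all genes), the smallest share of any group. Their median of -1.37 was near the -1.38 of the inner kinetochore genes, which were all called. Mki67 and Top2a below were not called, with larger fitted differences and larger SE than the called Spc24 (-0.94, SE 0.27). Mki67, the most used marker of cycling cells, which coats mitotic chromosomes (chr7:135689784-135716361), read 33.0, 18.1, 12.9 and 47.3 FPKM in 2D and 18.1, 19.3, 7.46 and 2.79 FPKM in 3D. The 3D libraries of mice 1 and 4 were at or above the level of the 2D libraries of mice 3 and 4, and the difference did not pass the test (log2 fold change -1.28, SE 0.62, adjusted p = 0.140). Top2a, the topoisomerase that untangles sister chromatids, read 47.7, 32.1, 19.3 and 62.7 FPKM in 2D and 19.5, 28.0, 10.6 and 4.36 FPKM in 3D. The 3D libraries of mice 1 and 4 were above the 2D library of mouse 4 (log2 fold change -1.45, SE 0.57, adjusted p = 0.0770, and 0.0406 without 3D mouse 4). Among the condensin subunits, Smc2, a core ATPase, read 18.4, 10.9, 10.1 and 23.7 FPKM in 2D and 4.74, 7.20, 4.16 and 3.69 FPKM in 3D. It fell without overlap (log2 fold change -1.45, SE 0.30, adjusted p = 0.00640), as did Ncapg, a subunit of condensin I (4.65 to 14.4 FPKM in 2D and 0.922 to 3.41 in 3D, -1.70, adjusted p = 0.0118). Smc4, the ATPase that pairs with Smc2, spanned 20.4 to 34.5 FPKM in 2D and 19.0 to 27.0 in 3D (-0.16, adjusted p = 0.523). Ncaph, the condensin I subunit that joins the ATPases (chr2:127103809-127133954), read 10.6, 6.72, 5.20 and 12.8 FPKM in 2D and 8.34, 12.3, 8.59 and 5.71 FPKM in 3D. The cultures covered nearly the same range (log2 fold change 0.02, SE 0.31, adjusted p = 0.968).

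**Figure D2:**
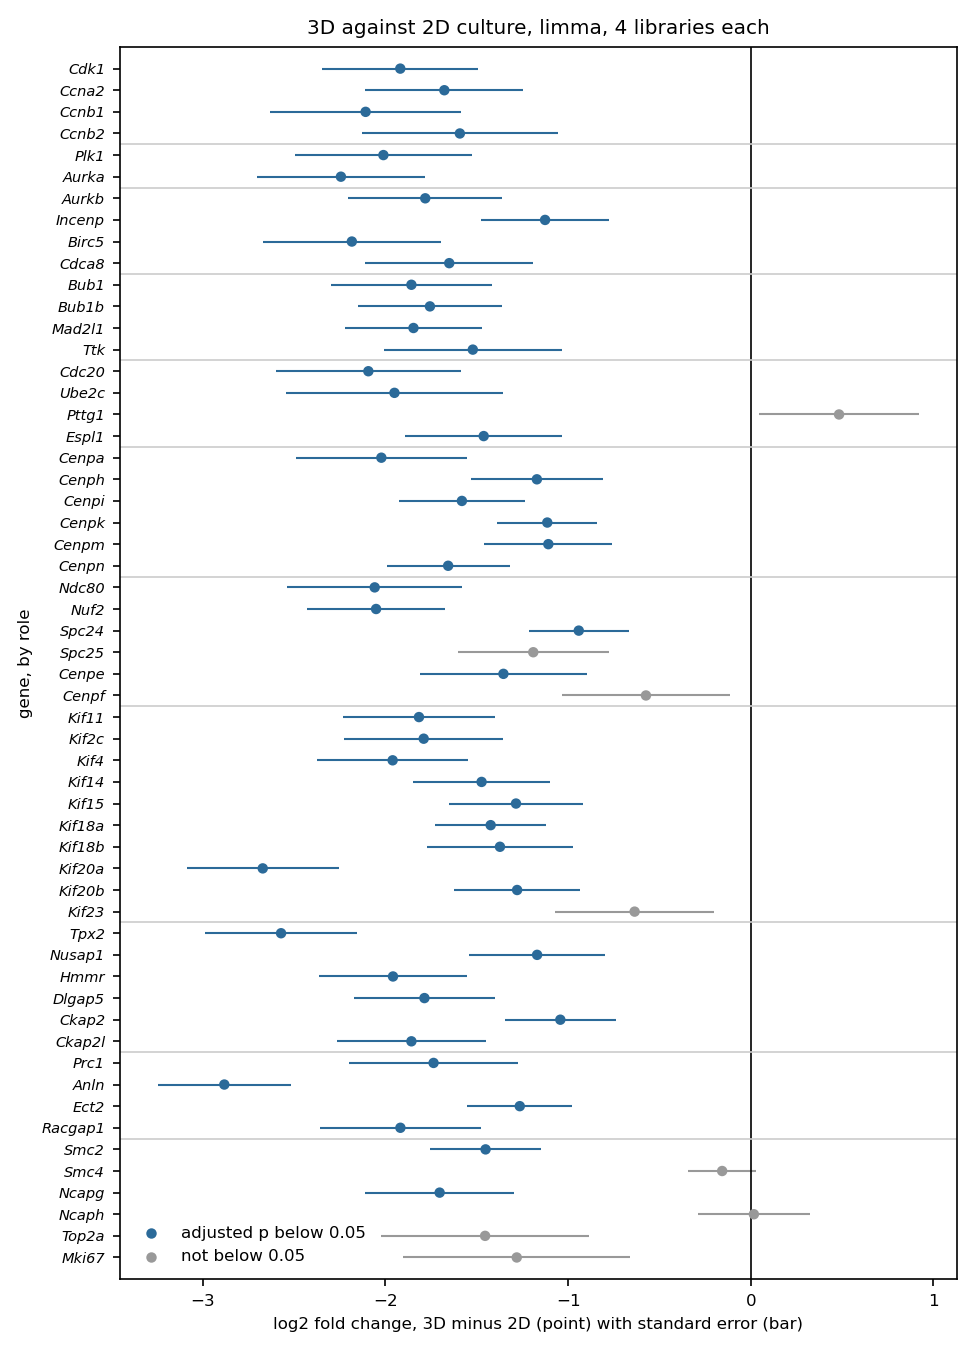
Fitted log2 fold change (3D minus 2D, point) and standard error (bar) of each of the 56 genes in order of role, from limma on 4 libraries per culture, with the 48 genes at an adjusted p below 0.05 in blue and the other 8 in grey. Points reach from -2.88 for Anln to 0.48 for Pttg1, and the grey points lie in the anaphase, outer kinetochore, kinesin and chromatin groups.

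Mice 4 and 5, which gave both cultures, differed in how far the 2 cultures stood apart. Within mouse 4, 39 of 56 members were lower in 3D, against 44.7% of all genes, with a median log2 difference of -0.29 (range -1.50 to 1.11). Within mouse 5, 55 of 56 were lower, against 44.3% of all genes, with a median of -2.59 (range -3.73 to 0.66), and the difference was more negative in mouse 5 than in mouse 4 for 55 members. Anln (-1.50 in mouse 4 and -3.40 in mouse 5), Kif20a (-1.26 in mouse 4 and -3.73 in mouse 5) and Tpx2 (-1.08 in mouse 4 and -3.46 in mouse 5) were lower in 3D in both animals by more than most members. Mki67 (0.55 in mouse 4 and -2.51 in mouse 5), Cenpf (1.11 in mouse 4 and -1.52 in mouse 5) and Ncaph (1.10 in mouse 4 and -0.52 in mouse 5) had opposite signs in the 2 animals. Pttg1 was higher in 3D in both, by 0.45 in mouse 4 and 0.66 in mouse 5. The 17 members that were higher in 3D within mouse 4 were the 17 whose libraries overlapped between cultures. This match is no separate result, since any member higher in 3D within mouse 4 overlaps by definition. The reverse largely follows from the ranks, as mouse 4 was lowest in 2D for 54 members and highest in 3D for 51. With 1 library per animal and culture the within-mouse differences are differences between libraries, and the difference between the animals was not tested. Fitted on these 4 libraries alone, 0 members were called (7.92% of genes tested were called lower and 9.89% higher, adjusted p of the members 0.0549 to 0.855), and 5 were lower at an unadjusted p under 0.05, namely Anln, Kif20a, Tpx2, Mad2l1 and Nuf2, with Pttg1 higher, beside 16.2% and 19.4% of all genes.

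**Figure D3:**
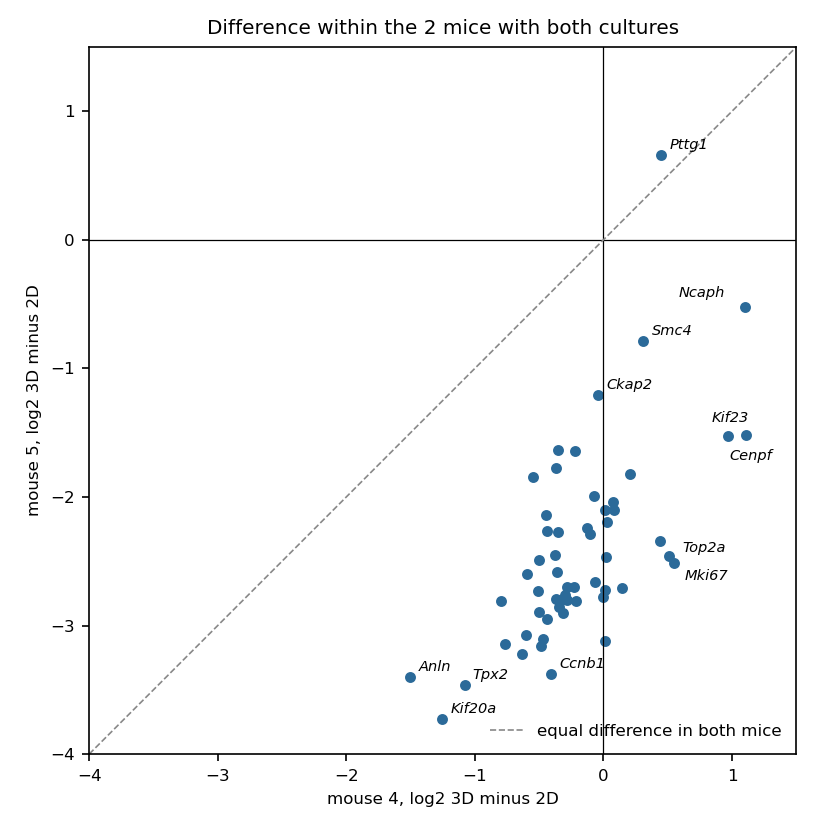
Log2 difference between the 3D and 2D libraries of mouse 4 (horizontal axis) and of mouse 5 (vertical axis), 1 point per gene, with a dashed line where both differences are equal. Almost all points lie below the line: the median is -0.29 in mouse 4 and -2.59 in mouse 5, and Pttg1 is the only point above 0 on the vertical axis.

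The libraries of a culture also differed widely among themselves, and the members moved together. In 2D the median level over the 56 members was 14.2, 9.07, 6.42 and 18.3 FPKM for mice 2, 3, 4 and 5. For 3D it was 3.99, 6.20, 2.76 and 1.69 FPKM (mice 1, 4, 5 and 7). The 2D library of mouse 4 and the 3D library of mouse 4 were thus close to each other, at the low end of 2D and the high end of 3D. In 2D, mice 2 and 5 were both above mice 3 and 4 for 55 of 56 members, a pattern that 28.1% of all genes had, and mouse 4 was lowest for 54. In 3D, mice 1 and 4 were both above mice 5 and 7 for 48 members, compared with 13.4% of all genes, and mouse 7 was lowest of all 8 libraries for 49. The fold between the highest and the lowest library of a culture had a median of 3.08 in 2D (1.41 to 5.02) and of 3.81 in 3D (1.20 to 7.31) over the members. Their median SD was 0.67 in 2D and 0.59 in 3D on the log2 scale, against 0.23 and 0.22 for the 12577 genes that averaged 1 FPKM or more. Beside this, the 2D libraries of mice 3 and 4, low in mitotic genes, were those with the highest Krt8 and Krt18 of their culture (Krt7 was higher in mouse 4 alone), and the part of epithelial transcripts in the lower values was not tested. In 2D 21 to 48 members were at 10 FPKM or more, and in 3D 2 to 10.

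To show which genes departed from the rest, each value was also set against the median of the 56 members in the same library, on the log2 scale. On this relative scale Anln stood at 1.59 to 2.14 in 2D and 0.29 to 0.67 in 3D, and Kif20a at 0.92 to 0.97 in 2D and -0.39 to 0.02 in 3D. Tpx2 stood at 0.75 to 0.91 in 2D and -0.37 to -0.12 in 3D. These 3 spindle and cytokinesis genes thus lay lower in 3D against the median of the members, with no overlap between cultures. They were not alone in this. Cdk1 (0.83 to 1.07 in 2D and 0.43 to 0.70 in 3D) and Aurka (0.54 to 1.19 and -0.08 to 0.10) did so too. Members such as Birc5, Cenpa, Bub1, Ndc80, Nuf2, Kif4, Hmmr, Ckap2l and Racgap1 were also lower without overlap. Others lay higher in 3D on the same scale. Kif23 stood at -0.85 to -0.30 in 2D and 0.05 to 0.52 in 3D, Cenpf at -0.79 to -0.51 in 2D and -0.04 to 0.41 in 3D and Smc4 at 0.74 to 1.53 in 2D and 1.88 to 2.90 in 3D. Ncaph stood at -0.49 to -0.26 in 2D and 0.89 to 1.35 in 3D, above the group in every 3D library and below it in every 2D library. Pttg1 stood at 0.19 to 1.84 in 2D and 1.29 to 4.47 in 3D, with overlap. The Mki67 ranges overlapped, at 0.91 to 1.32 in 2D and 0.50 to 1.94 in 3D. The added 1 in log2(FPKM + 1) shrinks distances from the median most where levels are low. Library medians of the members were 1.69 to 6.20 FPKM in 3D and 6.42 to 18.3 FPKM in 2D. High members are thereby drawn down and low members drawn up in 3D, by an amount that was not computed. The share of all genes without overlap on this scale was not computed either. These relative levels are descriptions, since the fold changes from which the genes were picked come from the same libraries. No test was made on them.

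**Figure D4:**
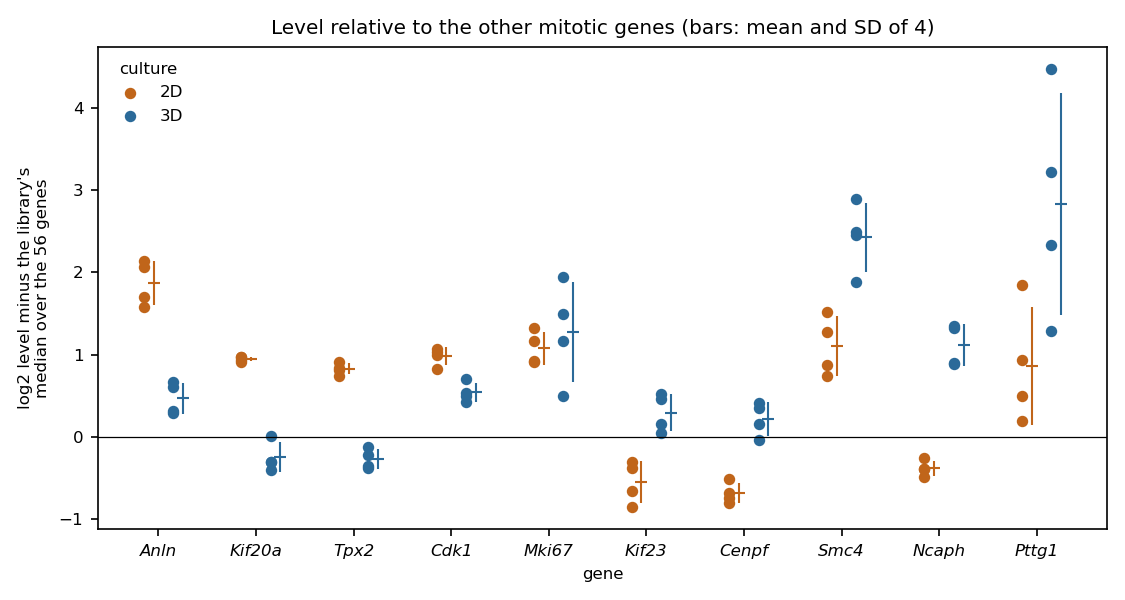
Log2 level of 10 mitotic genes minus the median over the 56 genes in the same library, for 4 libraries per culture (points), with mean and SD beside them (bars). Anln, Kif20a, Tpx2 and Cdk1 lie lower in 3D than in 2D on this scale and Kif23, Cenpf, Smc4 and Ncaph higher, each without overlap. Mki67 and Pttg1 overlap.

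Other genes of the pathway were counted in the same fit, from 6 further lists of 117 tested genes, of which 67 were called lower (57.3%, against 20.3% of all genes) and 8 higher (6.84%, against 21.2%). With the mouse block 0 were called, and in the fit on mice 4 and 5 alone 6 were lower (5.13%), fewer than the 7.92% of all genes, and 2 higher (1.71%, against 9.89%). Of 39 further mitotic genes 27 fell (69.2%) and 1 rose (2.56%, median -1.30), and the latter was Psrc1, a microtubule regulator. Dsn1, of the MIS12 kinetochore complex, read 5.97, 5.78, 4.88 and 8.83 FPKM in 2D and 1.71, 1.84, 1.36 and 1.91 FPKM in 3D. It had the smallest adjusted p of the list (log2 fold change -1.42, SE 0.19, adjusted p = 0.000759), followed by Fam64a (log2 fold change -2.63, SE 0.38, adjusted p = 0.00116) and Cep55, which acts in abscission (log2 fold change -2.31, SE 0.38, adjusted p = 0.00210). The 17 replication licensing genes showed the same direction, 16 of them lower (94.1%) and 0 higher (median -1.18). Orc6 (-1.46, adjusted p = 0.000256), Gins2 (-1.88, 0.00181) and Cdc45 (-2.09, 0.00275) had the smallest adjusted p.

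Of 17 transcription factors and subunits of the complexes that switch these promoters, 7 fell (41.2%) and 1 rose (5.88%, median -0.47). The shares over all genes were 20.3% lower and 21.2% higher. Foxm1, which activates G2 and M genes, read 12.6, 6.23, 3.65 and 16.6 FPKM in 2D and 1.56, 1.87, 1.13 and 0.572 FPKM in 3D. It fell without overlap (log2 fold change -2.09, SE 0.44, adjusted p = 0.00643). Mybl2, the activating MYB partner of MuvB, spanned 1.94 to 10.7 FPKM in 2D and 0.620 to 1.68 in 3D (-1.55, adjusted p = 0.0368). E2f1, an activator of S phase genes, spanned 15.6 to 21.7 FPKM in 2D and 4.43 to 10.04 in 3D (-1.49, adjusted p = 0.00157), and Lin54, the MuvB subunit that binds the CHR, spanned 5.15 to 8.41 FPKM in 2D and 2.67 to 3.59 in 3D (-0.90, adjusted p = 0.00449). E2f5, a repressor E2F, read 7.41, 4.95, 5.11 and 7.52 FPKM in 2D and 21.2, 21.6, 19.3 and 18.2 FPKM in 3D. It was the regulator called higher, with all 3D values above all 2D values (log2 fold change 1.56, SE 0.15, adjusted p = 0.000162). Rb1, the retinoblastoma gene, spanned 3.34 to 4.59 FPKM in 2D and 4.59 to 7.84 in 3D (0.37, adjusted p = 0.141).

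Of 15 genes of the APC/C, namely core subunits and the activator Fzr1, 7 fell (46.7%) and 2 rose (13.3%, median -0.30). The shares over all genes were 20.3% lower and 21.2% higher. Anapc15 (-1.77, adjusted p = 1.03e-05), Cdc16 (-0.73, 0.000267) and Anapc4 (-0.69, 0.000470) had the smallest adjusted p. Anapc15 read 22.1, 20.1, 22.4 and 21.6 FPKM in 2D and 5.33, 6.49, 5.74 and 4.92 FPKM in 3D. Its libraries lay close together within each culture. Of 9 tested genes of cohesin and its loaders, 1 fell (11.1%) and 2 rose (22.2%, median 0.21), shares below and near the 20.3% and 21.2% of all genes. Rad21, the subunit that separase cuts, was higher by 0.46 (adjusted p = 0.00771) and Mau2, a cohesin loader, by 0.49 (adjusted p = 0.0103) on the log2 scale. Pds5b, a cohesin regulator, had a log2 fold change of -0.59 (adjusted p = 0.00942). Of 20 mitotic genes with other cellular roles, 9 fell (45%) and 2 rose (10%, median -0.64). Numa1, which anchors spindle poles and belongs to the nuclear matrix in interphase, read 18, 17.9, 16.7 and 18.5 FPKM in 2D and 41.5, 42.3, 42.8 and 39.0 FPKM in 3D. It rose (log2 fold change 1.17, SE 0.06, adjusted p = 8.49e-06), while Mapre1, a microtubule end-binding protein (-0.79, adjusted p = 0.000182), and Kpnb1, an import receptor (-0.97, 0.000467), fell. The library medians of the APC/C list were 22.1 to 29.4 FPKM in 2D and 19.8 to 22.1 FPKM in 3D, a narrow range beside the 1.69 to 18.3 FPKM of the members.

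**Figure D5:**
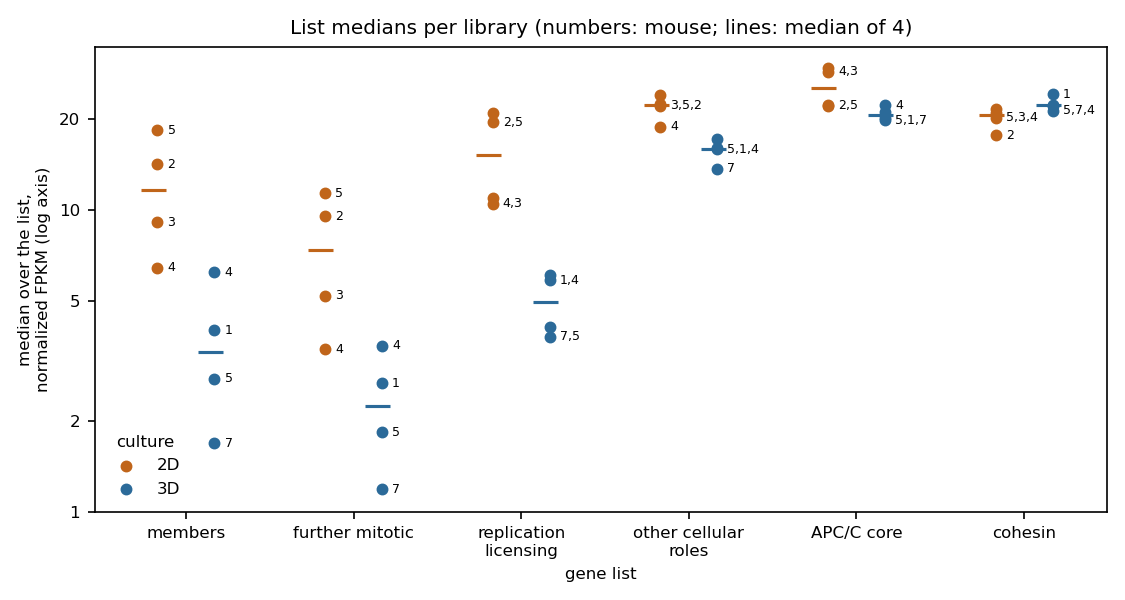
Median normalized FPKM (log axis) over each of 6 gene lists in each library, with the mouse number beside each point and a line at the median of the 4 libraries of a culture. The medians of the 56 members (1.69 to 18.3 FPKM) separate by culture, though narrowly in mouse 4 (6.42 in 2D and 6.20 in 3D). Those of the licensing genes and of the genes with other cellular roles (18.8 to 24.0 in 2D and 13.7 to 17.1 in 3D) also separate. Those of the further mitotic genes overlap in mouse 4 (3.45 in 2D and 3.55 in 3D). Those of the APC/C and cohesin lists lie within 17.6 to 29.4 FPKM in all 8 libraries.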

How the data were processed

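RNA of 8 cultures was sequenced with a directional kit after depletion of ribosomal RNA. The authors trimmed the reads, mapped them with TopHat to mm10 (per the labels and the study's methods) and computed FPKM with Cufflinks. The deposited FPKM values, 1 file per library, hold no read counts and no quantile normalization. The annotation and the use of strand are not given in the sources used here.

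The 56 members, their roles and all lists were chosen with earlier results of these data known. Genes at 0 in all libraries (5484 of 24346) were left out, and the other 18862 were quantile normalized and fitted as log2(FPKM + 1) with limma 3.58.1 in R 4.3.3 (intensity trend, Benjamini-Hochberg over all genes tested, two-sided, threshold 0.05), 4 libraries against 4, without covariates, after a test on simulated data. Fold changes on this scale understate those of low genes. Values in every library are given for 10 members (Mki67, Top2a, Cdk1, Ccnb1, Aurkb, Birc5, Bub1b, Plk1, Cenpa and Kif11), for the members with the smallest and the largest adjusted p of each role and for members of opposite sign, and in each other list the 3 genes with the smallest adjusted p are named, with Foxm1, Mybl2, Rb1 and E2f1. Cell type marker lists were mesenchymal, epithelial, endothelial, macrophage and leukocyte, adipocyte, and smooth muscle and pericyte. Libraries of mice 4 and 5 are paired by the labels, which name the same animal. Their deviations from the culture means correlated at -0.05 and -0.11 over 12577 genes. Alternatives were the mouse as a block or random effect, mice 4 and 5 alone, other normalizations, pseudocount and filters, and the omission of single libraries. The 2D libraries of mice 3 and 4 were also left out together, chosen after seeing the data.

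Depth was estimated from the spacing of low FPKM values, of which 69.1 to 79.8% per library lay within 0.15 of a whole fragment count, so it is approximate and covers counting only. At 2 kb, 3 fragments correspond to 0.0863 to 0.104 FPKM. Exons of 14 members overlap another gene, 6 of them over at least 10% of their bases: Kif20a, Ube2c, Kif4, Ncapg, Ccna2 and Prc1, each with a gene on the opposite strand. Pseudogene copies of Ccnb1, Ccnb2 and Kif4 are annotated, and reads shared with them could be split. Kif4-ps was listed at 0 in all libraries. Positions are from GENCODE (GRCm38) and promoters from RefSeq (GRCm38.p6).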

Additional observations from a re-analysis of the deposited data

Results flagged for a closer look

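Of 112 groups of 4 values (56 genes in 2 cultures), 1 (0.893%) held a library far from the other 3 by Dixon's criterion, where chance alone gives about 1 in 20 groups. Cenph, a subunit of the constitutive centromere network, stood at 4.43 FPKM for mouse 4 in 3D, while the other 3D libraries lay at 1.80 to 2.07 FPKM, so that the gap took up 0.862 of the whole range. The same animal stood at 4.32 FPKM in 2D.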

How the results depend on the processing

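With mouse as a block, which rests on the 2 animals that gave both cultures and leaves 1 residual degree of freedom per gene before moderation, 0 members and 0 other pathway genes were called, as were 0 of all genes. At an unadjusted p under 0.05, 0 of 56 members were lower (12.6% of all genes) and 1 was higher (15%). In the fit on mice 4 and 5 alone, 0 members were called lower and 6 other pathway genes. Leaving out each library in turn gave 32 to 49 members called lower and 0 to 1 called higher, the 1 being Pttg1 (0.95) without the 3D library of mouse 1. The values as deposited gave 39 members, equal library medians 44, no intensity trend 46, genes under 300 nt left out 48, mouse as a random effect 48, a mean of at least 1 FPKM 49 and a pseudocount of 0.1 49, with medians of -2.07 to -1.60. Ncaph, at 0.02, ranged up to 0.20 (without 2D mouse 5) and changed sign to -0.07 without 2D mouse 3, -0.18 without 2D mouse 4, -0.15 without 3D mouse 4 and -0.41 without both the 2D libraries of mice 3 and 4, and passed the test in none of these. In that last fit Kif23 was called lower (-1.32, adjusted p = 0.0185) and Ccnb2 was not called (adjusted p = 0.0607). Outside the block and the fit on mice 4 and 5, 35 members, 32 of them called, kept their direction and their side of the threshold in all 16 other fits. The cause of these changes was not tested beyond the smaller number of libraries. By an estimate from the longest annotated transcript of each gene, 2 of 448 member values rested on fewer than 20 fragments, and the median was 362. Where the expressed transcript is shorter the fragments are overstated, so more values may rest on few fragments.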
